A study of Mus musculus with 8 samples.

Results

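An siRNA against the transcription factor GABP (siGABP) was compared with a scrambled siRNA (siCtrl) in mouse macrophages, across resting cells and cells stimulated through Toll-like receptor 4 (TLR4). The comparison comprised 4 of the 8 arrays of the series, chosen by their labels. These were siGABP untreated, siGABP with KLA, siCtrl untreated and siCtrl with KLA, with 1 array each. All cells were thioglycollate-elicited peritoneal macrophages of C57BL/6 mice. KLA, which is Kdo2 lipid A and activates TLR4, was given for 6 h. The other 4 arrays carried an siRNA against MLL (siMLL), 3 untreated and 1 with KLA. They entered the intensity filter and the estimate of the spread, not the difference between siGABP and siCtrl. Their levels are given beside those of many genes, and a comparison of siGABP with siMLL is given separately. The GABP subunit targeted by the siRNA, its sequence, the transfection, the dose of KLA, and the age and number of the mice are not given in the sources used here.

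GABP is an ETS-family transcription factor assembled from 2 kinds of subunit. The alpha subunit (Gabpa) holds the ETS domain that binds DNA, at sites built on the core GGAA, and the beta subunit (Gabpb1 or Gabpb2) holds the transactivation domain. GABP is best known for binding near the start sites of housekeeping genes, including genes of the mitochondrial respiratory chain and of ribosomes. It is also known for activating several genes of myeloid and lymphoid cells. In macrophages, TLR4 senses bacterial lipopolysaccharide and switches on NF-κB and interferon regulatory factors through the adaptors MyD88 and TRIF. Cytokine and chemokine genes such as Tnf respond early, and interferon-stimulated genes largely follow through secreted type I interferon.

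Levels are given as deposited intensities, which are relative to the other probes because each array holds the same set of values. The median intensity over all probes was 139.5. For each gene, the values of an siRNA are given in the order untreated, then KLA, and the siMLL untreated value is the mean ± SD of 3 arrays. Differences are log2 ratios of background-corrected intensity, siGABP minus siCtrl averaged over both KLA states, with their standard error (SE). They understate the change of dim genes, since background remains in the values. The probe with the highest mean stood for each gene, and probes with a mean at or below the median of all probes were not tested. Genes are called higher or lower where the limma fit over 8793 genes gave an adjusted p (Benjamini-Hochberg) under 0.05. Of 272 other probes of called genes past the filter, 205 (75.4%) differed in the same direction as the probe that stood for the gene. The 16 measured macrophage markers had summed intensities of 118910 and 109010 with siGABP, against 119370 and 107290 with siCtrl. Of these markers 1 was called (Ctss, lower), or 6.25%, against 11.3% of all genes tested. The Ctss call did not hold in every alternative fit. In bulk RNA, fewer cells of a type and less RNA per cell cannot be told apart.

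Gabpa fell with siGABP in both KLA states. Its brightest probe read 127 in untreated and 157 in KLA-treated siGABP cells, against 202 and 318 in siCtrl cells. The siMLL arrays read 184 ± 3.86 and 275 on this probe, so the siGABP arrays were the lowest within each KLA state. The difference was log2 -1.02 ± 0.09 SE, adjusted p = 0.000211, or 2.03-fold lower, and it was -0.84 in untreated and -1.20 in KLA-treated cells. Of the others, probe 4850279 fell by 0.38 on the log2 scale (± 0.09 SE) and was called in a fit by probe (adjusted p = 0.0251). Probe 4780301 differed by -0.05 ± 0.09 SE and was not called (adjusted p = 0.795). Both lay near background, between 128 and 179 over the 8 arrays.

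Gabpb1 was higher with siGABP, in the opposite direction to Gabpa. Its brightest probe read 414 in untreated and 968 in KLA-treated siGABP cells, against 226 and 514 in siCtrl cells. Its level on the siMLL arrays was 229 ± 3.24 and 573, close to siCtrl. The difference was log2 0.97 ± 0.08 SE, adjusted p = 0.000155, with nearly equal values of 0.98 untreated and 0.96 with KLA. The second Gabpb1 probe differed by 0.83 ± 0.15 SE (adjusted p = 0.00664 by probe). Both Gabpb2 probes lay below the intensity filter and were not tested.

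**Figure D1:**
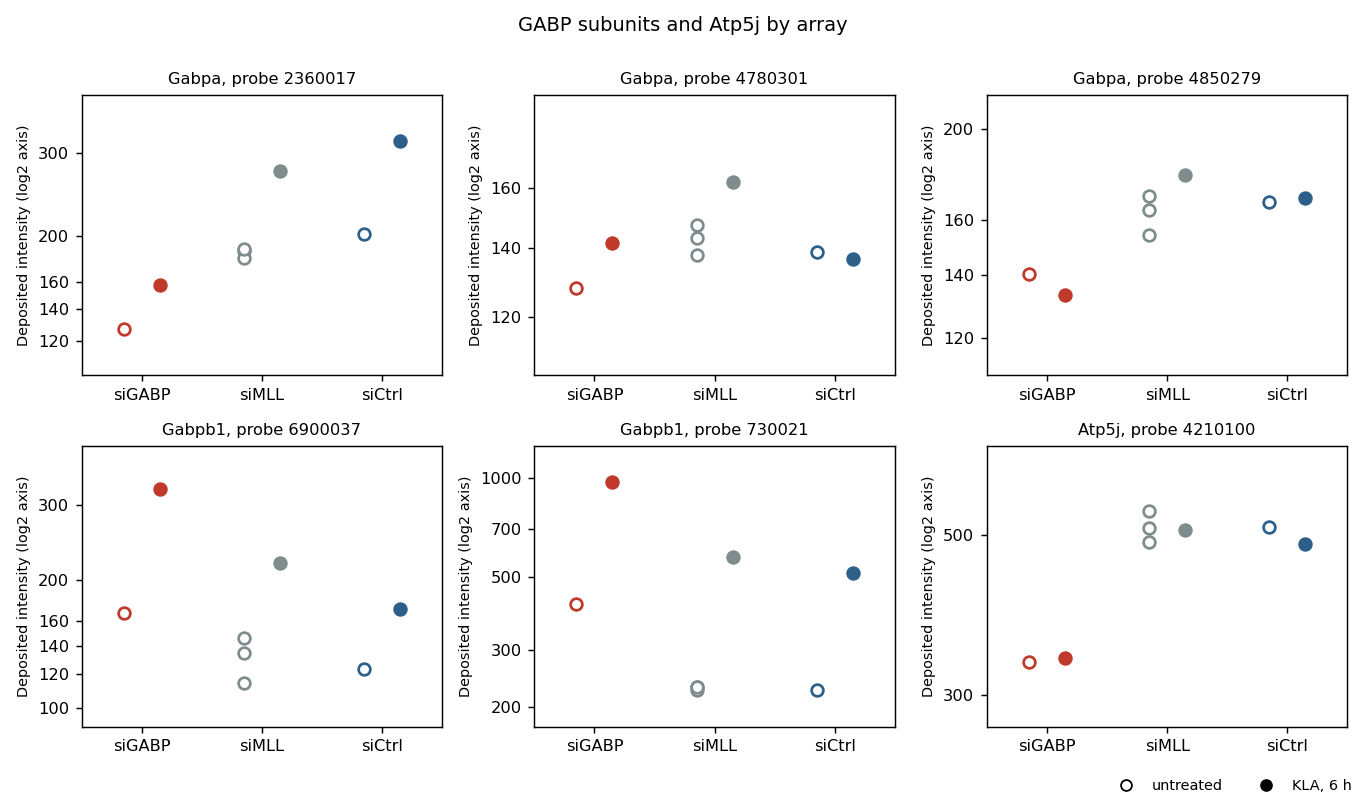
Deposited intensity (log2 axis) of the Gabpa and Gabpb1 probes past the intensity filter and of Atp5j in each array, by siRNA, with open points for untreated and filled points for KLA-treated cells. Each point is 1 array. On the brightest Gabpa probe and on Atp5j the siGABP arrays lie below the siMLL and siCtrl arrays of the same KLA state, and on the brightest Gabpb1 probe they lie above them.

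Atp5j, the gene next to Gabpa on the opposite strand, fell with siGABP too, the most of 14 measured ATP synthase genes. It encodes coupling factor 6 of the mitochondrial ATP synthase. It read 333 and 338 with siGABP, against 513 and 485 with siCtrl, while the siMLL arrays read 514 ± 26.2 and 508. The siGABP arrays thus lay below the other arrays in both states, by log2 -0.62 ± 0.08 SE, adjusted p = 0.00101. A second Atp5j probe lay below the intensity filter and was not tested. It read 108 and 117 with siGABP, against 100.3 and 102 with siCtrl. Its differences, 0.15 untreated and 0.29 with KLA, were opposite in sign to those of the brighter probe. In the RefSeq annotation (GRCm38.p6) the start sites of the pair lie head to head. The promoter windows, which run from 250 bases before to 50 bases after a start, share 247 bases. They share a match to CCGGAAG, an ETS core of the kind GABP binds, at chr16:84835031-84835037. The windows are printed 5′ to 3′ on the strand of each gene, with the match in capitals (searched on both strands). They span chr16:84834874-84835173 for Gabpa (plus strand) and chr16:84834927-84835226 for Atp5j (minus strand). The Atp5j window is 1 of 2 in the table.

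Gabpa: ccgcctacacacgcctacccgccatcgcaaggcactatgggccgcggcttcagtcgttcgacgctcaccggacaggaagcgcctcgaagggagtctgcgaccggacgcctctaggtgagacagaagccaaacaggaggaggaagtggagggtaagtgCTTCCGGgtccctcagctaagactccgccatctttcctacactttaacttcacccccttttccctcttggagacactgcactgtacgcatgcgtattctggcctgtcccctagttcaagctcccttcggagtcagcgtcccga

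Atp5j: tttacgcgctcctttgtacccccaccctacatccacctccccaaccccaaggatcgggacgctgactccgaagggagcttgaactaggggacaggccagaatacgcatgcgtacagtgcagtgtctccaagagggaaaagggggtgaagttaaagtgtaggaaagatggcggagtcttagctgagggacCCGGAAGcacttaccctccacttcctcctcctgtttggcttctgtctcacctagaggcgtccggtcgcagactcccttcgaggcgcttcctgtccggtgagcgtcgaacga

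Across all genes, 992 of 8793 were called (11.3%), with 511 higher (5.81%) and 481 lower (5.47%) in siGABP cells. Most changes were small. Called changes had a median size of 0.38 (log2), and 5 genes were at least 2-fold higher and 8 at least 2-fold lower. The count moved most with the KLA arrays. Without the siGABP KLA array 212 genes were called, and without the siCtrl KLA array 263. Without the siGABP untreated array 829 were called, and without the siCtrl untreated array 677. With 1 array for each siRNA and KLA state, an effect of the siRNA and a property of the array or culture cannot be told apart.

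The difference in untreated cells and the difference in KLA-treated cells come from different arrays. Across the 8793 genes they correlated at r = 0.563, as a description, since genes are not independent replicates. Of all genes, 66.6% had the same sign in both. The spread across genes was wider with KLA (SD 0.262) than without (SD 0.199). All 992 called genes had the same sign in both states, which the test of the mean difference favours.

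**Figure D2:**
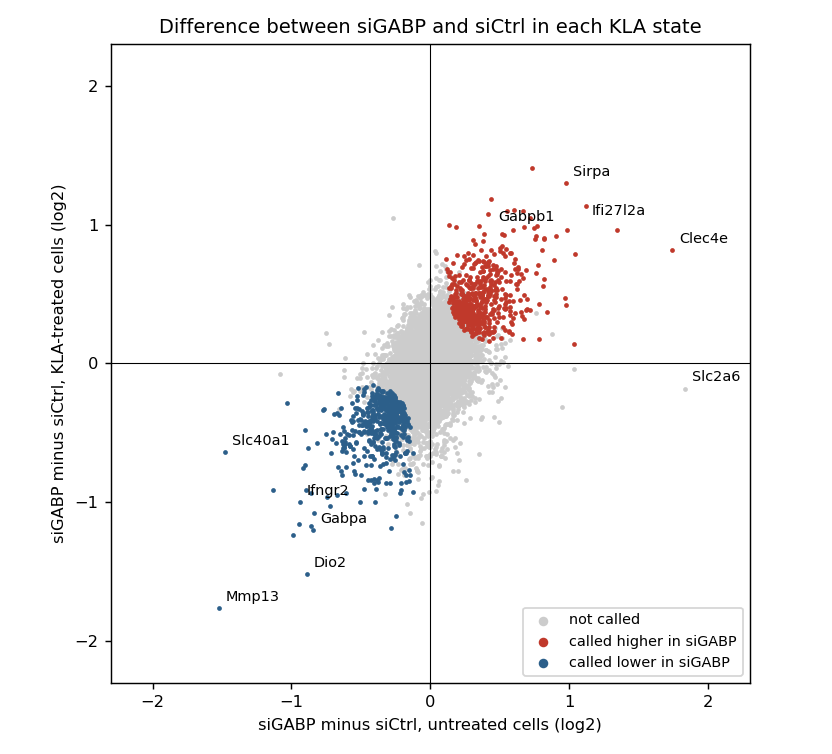
Difference between siGABP and siCtrl for each of 8793 genes, in untreated cells (x axis, log2) and in KLA-treated cells (y axis, log2), with called genes in colour. Called genes lie in the quadrants where the differences have the same sign (r = 0.563 across all genes), and Slc2a6 lies apart at 1.83 untreated and -0.18 with KLA.

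Genes of complement and of a soluble lectin were among the 15 largest falls. C1qb, a chain of the complement initiator C1q, read 786 and 835 with siGABP, against 1686 and 1545 with siCtrl (log2 -1.02 ± 0.11 SE, adjusted p = 0.000409). C1qc, another chain, read 720.1 and 627 with siGABP, against 1332 and 1032 with siCtrl (log2 -0.83 ± 0.11 SE, adjusted p = 0.00152). Fcna, which encodes ficolin A, a soluble lectin that tags bacterial sugars, read 173 and 160.2 with siGABP, against 302 and 316 with siCtrl (log2 -1.05 ± 0.09 SE, adjusted p = 0.000211). In these 3 genes the siMLL arrays lay between the siGABP and siCtrl arrays of the same KLA state. They read 1139 ± 120.2 and 986 for C1qb, 839 ± 114 and 734 for C1qc and 251 ± 13.2 and 269.9 for Fcna.

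The collagenase gene Mmp13 had the largest fall, to 241 and 774 with siGABP, against 629.8 and 2545 with siCtrl (log2 -1.64 ± 0.09 SE, adjusted p = 1.41e-05). With siMLL it was at 297 ± 21.1 and 1073, nearer siGABP than siCtrl. The KLA arrays were above the untreated arrays of the same siRNA, and a dimmer Mmp13 probe differed by -0.82. Dio2, the enzyme that activates thyroid hormone, read 2683 and 483 with siGABP, against 4944 and 1322 with siCtrl (log2 -1.21 ± 0.15 SE, adjusted p = 0.000902). With siMLL it was at 2594 ± 358 and 554, near the siGABP level. Lsp1, an actin-binding protein of leukocytes, read 1554 and 1092 with siGABP, against 2788 and 2049.6 with siCtrl (log2 -0.89 ± 0.08 SE, adjusted p = 0.000325), and the siMLL arrays read 1402 ± 107 and 1048, also near siGABP.

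Slc40a1, Slc30a1 and Selenop, which handle metals and selenium, were also among the 15 largest falls. Slc40a1, which encodes the iron exporter ferroportin, read 609 and 192 with siGABP, against 1638 and 281 with siCtrl (log2 -1.06 ± 0.16 SE, adjusted p = 0.00224). The KLA arrays were below the untreated arrays of the same siRNA, and the difference was -1.48 without and -0.64 with KLA. With siMLL it was at 818 ± 68.8 and 212, nearer siGABP. The zinc exporter gene Slc30a1 read 553 and 384 with siGABP, 653 ± 32.3 and 545 with siMLL, against 1002 and 695 with siCtrl (log2 -0.91 ± 0.09 SE, adjusted p = 0.000409), at -0.90 without and -0.91 with KLA. Selenop, a secreted selenium carrier, read 982 and 646 with siGABP, 1176 ± 176 and 926 with siMLL, against 1916 and 1475 with siCtrl (log2 -1.11 ± 0.13 SE, adjusted p = 0.000821). Trf, the plasma iron carrier transferrin, was lower by a smaller amount (log2 -0.51 ± 0.10 SE, adjusted p = 0.0112). In the iron handling list 2 of 20 genes were higher (Lcn2, which binds bacterial iron carriers, and Slc48a1, a heme transporter, 0.51) and 2 lower (Slc40a1 and Trf), with a median of 0.01. This was 20% called, against 11.3% of all genes. The calls of Trf and Slc48a1 were lost without at least 1 array among siGABP KLA, siCtrl KLA, siGABP untreated and siCtrl untreated (highest adjusted p for each gene 0.0526 to 0.0974).

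Also among the largest falls were a receptor chain and chemokines. Ifngr2, the second chain of the interferon-γ receptor, read 3304 and 1788 with siGABP, against 6307 and 3534 with siCtrl. The siMLL arrays read 5319.7 ± 39 and 3040.2, so siGABP stood apart from both other siRNAs (log2 -0.97 ± 0.07 SE, adjusted p = 0.000108 against siCtrl). Pf4, the chemokine CXCL4 of platelets and macrophages, read 308 and 261 with siGABP, against 534 and 548 with siCtrl (log2 -1.02 ± 0.12 SE, adjusted p = 0.000683), with siMLL at 476 ± 43.1 and 523. Ccl8, a monocyte chemokine, was near background with siGABP at 134 and 132, 156 ± 13.3 and 204 with siMLL, against 214 and 241 with siCtrl (log2 -0.96 ± 0.13 SE, adjusted p = 0.00136). Tnfrsf26, a receptor of the tumour necrosis factor receptor family, differed by -0.85 ± 0.09 SE (adjusted p = 0.000394). Pf4 was the 1 called gene of 4 measured platelet and erythroid markers (25%, against 11.3% of all genes). The others, Alas2 (-0.17), Ppbp (-0.13) and Klf1 (-0.02), lay near background. The 4 intensities, Pf4 among them, summed to 725 and 689 with siGABP, 857 to 968 over the siMLL arrays, and 963 and 1014 with siCtrl. Hba-a1, Itga2b and Gp9 lay below the filter, and the part of platelets in the difference was not tested.

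Heatr1 fell as well. It encodes a nucleolar protein required for making ribosomal RNA. It read 827 and 670.1 with siGABP, against 1342 and 1332 with siCtrl, whereas the siMLL arrays read 1329 ± 51.3 and 1237, at the siCtrl level. The difference was log2 -0.87 ± 0.09 SE, adjusted p = 0.000394, and a second Heatr1 probe differed likewise (-0.72 untreated and -0.95 with KLA). Another, dim probe differed by -0.01 and -0.11.

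**Figure D3:**
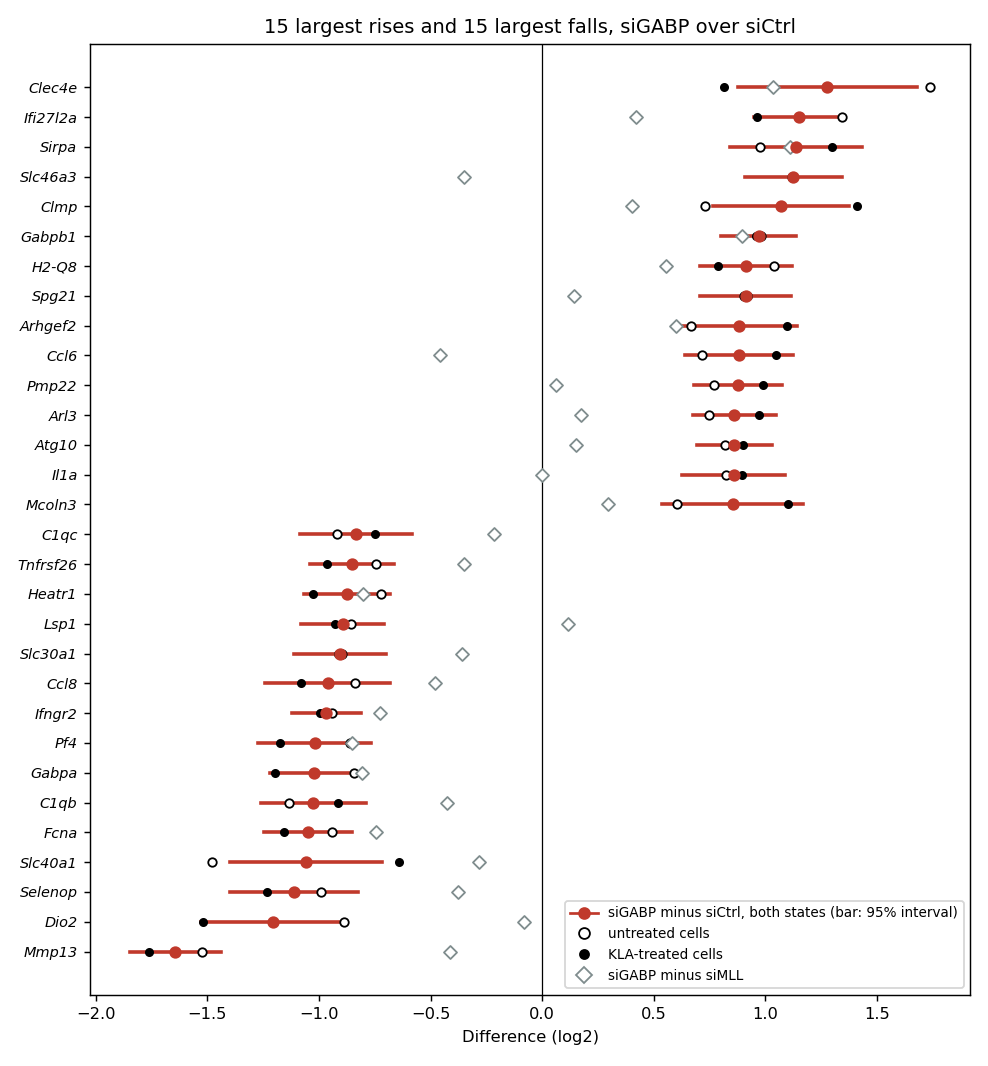
Called genes with the 15 largest rises and the 15 largest falls (log2, x axis). Red points are siGABP minus siCtrl over both KLA states with the 95% interval, open and filled black points are the difference in untreated and in KLA-treated cells, and grey diamonds are siGABP minus siMLL. Diamonds near the red points (Sirpa, Gabpb1, Heatr1, Gabpa, Pf4) mark genes whose siMLL level was near the siCtrl level, and diamonds near 0 (Il1a, Pmp22, Dio2) mark genes whose siMLL level was near the siGABP level.

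Among the 15 largest rises were pattern recognition and inhibitory receptors. Clec4e, which encodes Mincle, a C-type lectin that binds mycobacterial glycolipids, read 2252 and 16268 with siGABP, against 698 and 9253 with siCtrl (log2 1.28 ± 0.18 SE, adjusted p = 0.00198). The KLA arrays were far above the untreated arrays of the same siRNA. The siGABP difference was 1.74 without and 0.82 with KLA, and the siMLL arrays read 853 ± 24.5 and 11601, nearer siCtrl. A second Clec4e probe differed by 1.38 and 0.57. In the C-type lectin list 3 of 14 genes were called, all higher, with Ly75 (0.49) and Clec5a (0.27) beside Clec4e. The share called was 21.4%, against 11.3% of all genes called and 5.81% higher.

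Sirpa, the inhibitory receptor that binds CD47, read 1174 and 1013 with siGABP, against 613 and 431 with siCtrl, with siMLL at 550.1 ± 71.3 and 531. The siGABP arrays were the highest of all for Sirpa (log2 1.14 ± 0.13 SE, adjusted p = 0.000856). Its relative Sirpb1a, a receptor that signals through an activating adaptor, moved the other way (log2 -0.82 ± 0.09 SE, adjusted p = 0.000538), at 395 and 299 with siGABP, against 708 and 476 with siCtrl, and the siMLL arrays read 358 ± 13.6 and 297, near siGABP. Siglec1, a receptor for sialic acid, was higher (0.38), so that 2 of 18 genes of this receptor list were higher and 1 lower (16.7% called, against 11.3% of all genes). The calls of Ly75, Clec5a and Siglec1 were lost without at least 1 array among siGABP KLA, siCtrl KLA, siGABP untreated, siCtrl untreated, siMLL untreated replicate 1 and siMLL untreated replicate 3 (highest adjusted p for each gene 0.135 to 0.229).

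Single genes of interferon response and antigen presentation were also among the 15 largest rises. Ifi27l2a, an interferon-induced gene, read 4944 and 4394 with siGABP, against 1969 and 2272 with siCtrl (log2 1.15 ± 0.09 SE, adjusted p = 0.000155), with siMLL in between at 3449 ± 125 and 3557. H2-Q8, a gene of the MHC class I family, read 549.8 and 1683 with siGABP, 383 ± 24.5 and 1134 with siMLL, against 284 and 989 with siCtrl (log2 0.91 ± 0.09 SE, adjusted p = 0.000394). H2-Q8 has near-identical relatives, so its probe may also detect them. Arhgef2, an activator of the GTPase RhoA held on microtubules, read 179.9 and 204 with siGABP, against 126 and 113 with siCtrl (log2 0.88 ± 0.12 SE, adjusted p = 0.00144). The siMLL arrays read 130.4 ± 6.51 and 153 for Arhgef2, below the siGABP array of the same state.

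The cytokine gene Il1a read 761 and 10127 with siGABP, against 445 and 5460.3 with siCtrl (log2 0.86 ± 0.11 SE, adjusted p = 0.000902), and the chemokine gene Ccl6 read 821 and 578 with siGABP, against 512 and 297 with siCtrl (log2 0.88 ± 0.11 SE, adjusted p = 0.00101). The siMLL arrays read 799.5 ± 94.4 and 9398 for Il1a, near siGABP, and 1143 ± 122 and 784 for Ccl6, above siGABP. The lysosomal transporter gene Slc46a3 read 1740.2 and 497 with siGABP, against 818 and 245 with siCtrl (log2 1.12 ± 0.10 SE, adjusted p = 0.000211), and the siMLL arrays read 2371 ± 172 and 553. Mcoln3, an endolysosomal cation channel, differed by 0.85 ± 0.14 SE (adjusted p = 0.00427, and 0.0599 without the siGABP KLA array) and Atg10, an enzyme of autophagosome formation, by 0.86 ± 0.08 SE (adjusted p = 0.000211). Pmp22, a membrane protein known from myelin, and Arl3, a small GTPase of cilia, differed by 0.88 and 0.86. For Arl3 and Atg10 the siMLL arrays were nearer siGABP than siCtrl. Arl3 read 945 and 906 with siGABP, 844 ± 31.5 and 826 with siMLL, against 576 and 478 with siCtrl. Atg10 read 541 and 441 with siGABP, 489 ± 20 and 408 with siMLL, against 322 and 251 with siCtrl. Spg21 (maspardin, an endosomal protein) differed by 0.91 and the adhesion molecule gene Clmp by 1.07.

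Because siCtrl was 1 array in each state, siGABP was also set against the 4 siMLL arrays in the same fit, a comparison added after the data were seen. Both comparisons use the same siGABP arrays, and their values are given side by side. It called 465 genes (5.29%), 208 higher and 257 lower. Gabpa differed by -0.81 from siMLL (adjusted p = 0.00113) and -1.02 from siCtrl, and Gabpb1 by 0.90 (adjusted p = 0.000314) and 0.97. Sirpa differed by 1.11 from siMLL (adjusted p = 0.00125), Heatr1 by -0.80 (adjusted p = 0.000983), Ifngr2 by -0.73 (adjusted p = 0.000613) and Fcna by -0.74 (adjusted p = 0.00125). Other large differences from siCtrl were small against siMLL and not called, among them Il1a (0.00), Pmp22 (0.06), Dio2 (-0.08), Lsp1 (0.12) and Spg21 (0.14). The siMLL arrays carry an siRNA against a gene of their own, so they are not a neutral reference. For such genes, a shift shared by both siRNAs and siCtrl arrays that stand apart cannot be told apart. Slc46a3 and Ccl6 were lower than with siMLL (-0.35 and -0.46, adjusted p = 0.0453 and 0.022) while higher than with siCtrl.

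Genes that textbooks name as GABP targets moved little. Of 30 measured, 1 was called (3.33%, against 11.3% of all genes), and the median difference was -0.01, the same as over all genes (-0.01). The called gene was Bcl2l1, which encodes the survival protein BCL-XL. It was higher, at 483 and 289 with siGABP, against 319.6 and 197 with siCtrl (log2 0.65 ± 0.09 SE, adjusted p = 0.00189). With siMLL it was at 297 ± 17.9 and 209, near siCtrl. The other Bcl2l1 probes, which are dimmer, differed by 0.20 and 0.26 (unadjusted p = 0.062 and 0.0611).  None of 13 other ETS factors and none of 22 genes of mitochondrial DNA maintenance and translation was called.

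The called genes of the respiratory chain were all higher with siGABP than with siCtrl, most by small amounts. In complex I, 3 of 28 measured genes were called higher and 0 lower (median 0.07). Ndufc1 (0.33), Ndufa5 (0.37) and Ndufb8 (0.28) were the 3. This was 10.7% called, against 11.3% of all genes called and 5.81% higher, and 15 complex I genes lay above 0 and 13 below. Of 22 genes of complexes II to IV and cytochrome c, 4 were called higher and 0 lower (18.2% called, median 0.11). Of these 22, 16 lay above 0 and 6 below. Uqcrc2, a core protein of complex III, had the largest of these differences, at 2009 and 2105 with siGABP, against 1364 and 1229.7 with siCtrl (log2 0.68 ± 0.08 SE, adjusted p = 0.000683). For Uqcrc2 the siMLL arrays were at the siGABP level, at 2083 ± 27.4 and 2059. They were near it for Ndufb8 and Uqcr10 too. Ndufb8 read 4586 and 3164 with siGABP, 4596 ± 58.2 and 3307 with siMLL, against 3714 and 2654 with siCtrl. Uqcr10 read 5942 and 4287 with siGABP, 5784 ± 111 and 4327 with siMLL, against 4792 and 3247 with siCtrl. For Ndufc1, Ndufa5, Uqcr11 and Sdhb the siMLL arrays lay between siGABP and siCtrl. The other 3 called genes of complexes II to IV were Uqcr10 (0.36) and Uqcr11 (0.41) of complex III and Sdhb (0.31) of complex II. Apart from Uqcrc2, these calls were lost without at least 1 array among siGABP KLA, siCtrl KLA, siGABP untreated, siCtrl untreated and siMLL untreated replicate 3 (highest adjusted p for each gene 0.104 to 0.236).

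In the ATP synthase (21.4% called), 1 of 14 genes was called higher (Atp5o, 0.35) and 2 lower (Atp5j, described above, and Atp5pb, -0.41). Atp5o read 4972 and 3931 with siGABP, 4969 ± 49.1 and 3684 with siMLL, against 3827 and 3148 with siCtrl. Mitochondrial import held 2 called of 23, both higher. Timm8b, a small chaperone of the space between the mitochondrial membranes, read 3414 and 2662 with siGABP, against 2355 and 1521 with siCtrl (log2 0.68 ± 0.08 SE, adjusted p = 0.000902), and the siMLL arrays read 3083 ± 73.4 and 2295, nearer siGABP. Tomm7 of the outer membrane translocase differed by 0.45 ± 0.07 SE. It read 2981 and 2587 with siGABP, 2295 and 1819 with siCtrl, and 2396.5 ± 21.5 and 2022 with siMLL, nearer siCtrl. Of 70 mitochondrial ribosomal protein genes 2 were called higher, Mrps33 (0.29) and Mrpl9 (0.25), and 3 lower, Mrps34 (-0.33), Mrpl48 (-0.33) and Mrpl16 (-0.40). Set against 11.3% of all genes, 10.7% of complex I, 18.2% of complexes II to IV, 8.7% of the import list and 7.14% of mitochondrial ribosomal proteins were called. Except for Atp5j and Timm8b, these calls were lost without at least 1 array among siGABP KLA, siCtrl KLA, siGABP untreated, siCtrl untreated, siMLL KLA, siMLL untreated replicate 1 and siMLL untreated replicate 3 (highest adjusted p for each gene 0.0513 to 0.398).

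Most cytosolic ribosomal protein genes had a difference below 0. Of 71 measured, 7 were called lower and 1 higher, 11.3% in all as among all genes, while 57 of 71 lay below 0 (median -0.11, against -0.01 over all genes, of which 4651 of 8793 lay below 0). Rpl31 fell most among the called, at 682 and 605 with siGABP, 844 ± 25.7 and 763 with siMLL, against 893 and 864 with siCtrl (log2 -0.47 ± 0.07 SE, adjusted p = 0.00322). Rpl10a read 4712 and 3869 with siGABP, 5768 ± 85 and 4308 with siMLL, against 5951 and 4446 with siCtrl (-0.27 ± 0.07 SE) and Rps24 254 and 276 with siGABP, 299.8 ± 24.3 and 339 with siMLL, against 301 and 355 with siCtrl (-0.34 ± 0.09 SE). Many ribosomal protein genes have processed copies that share sequence, so single probes are uncertain. In the cell cycle list 5 of 29 were called lower and 1 higher, 20.7% in all, against 11.3% of all genes. The replication genes Pcna (529.9 and 556 with siGABP, 628 ± 91.9 and 829.6 with siMLL, against 710.4 and 969 with siCtrl, log2 -0.64 ± 0.14 SE, adjusted p = 0.0137) and Mcm5 (-0.43) were lower, and the transcription factor gene E2f1 was higher (0.40). The calls of Rpl10a, Rps24, Pcna, Mcm5 and E2f1 were lost without at least 1 array among siGABP KLA, siCtrl KLA, siGABP untreated, siCtrl untreated, siMLL KLA, siMLL untreated replicate 1 and siMLL untreated replicate 3 (highest adjusted p for each gene 0.103 to 0.25).

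**Figure D4:**
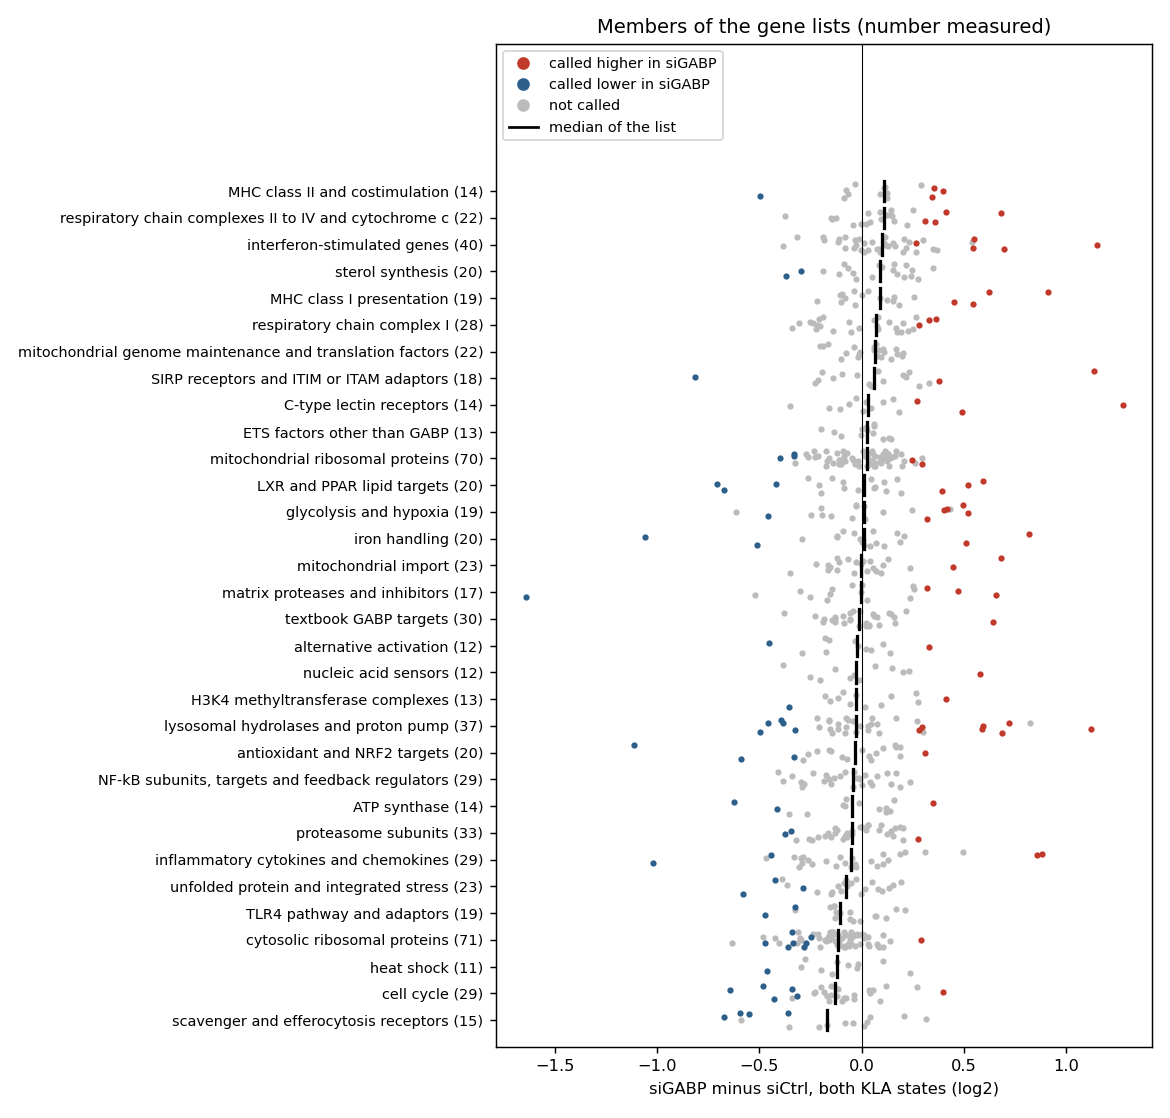
Difference between siGABP and siCtrl over both KLA states (x axis, log2) for the measured members of each gene list with 11 or more (cell type markers and the study's own lists are not drawn), with called genes in colour and the median of the list as a bar. The medians lie between -0.17 and 0.11. Called members all lie above 0 in several lists, among them interferon-stimulated genes, MHC class I presentation, complex I and C-type lectin receptors. In these lists 12.5%, 21.1%, 10.7% and 21.4% were called, against 11.3% of all genes. Called members all lie below 0 in other lists, among them scavenger and efferocytosis receptors (4 of 15) and the unfolded protein and stress responses (3 of 23). The same holds for the TLR4 pathway (2 of 19) and sterol synthesis (2 of 20). Of the 28 complex I genes, called or not, 15 lie above 0 and 13 below. Of the 40 interferon-stimulated genes, called or not, 27 lie above 0 and 13 below.

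Among interferon-stimulated genes, 5 of 40 measured were called, all higher (12.5%, against 11.3% of all genes). Besides Ifi27l2a these were Irf7, the master regulator of type I interferon, the antiviral genes Oasl2 and Oas3, and Ifitm3, which blocks virus entry. Irf7 read 1017 and 2276 with siGABP, against 533 and 1713 with siCtrl (log2 0.70 ± 0.11 SE, adjusted p = 0.00322), Oasl2 read 396 and 1886 with siGABP, against 265 and 1386 with siCtrl (log2 0.55 ± 0.08 SE, adjusted p = 0.00185) and Ifitm3 read 13346 and 16590.0 with siGABP, against 8265 and 12642 with siCtrl (log2 0.54 ± 0.09 SE, adjusted p = 0.00482). In these 3 genes the siMLL arrays were nearer siCtrl than siGABP, at 613 ± 14.3 and 1636 for Irf7, 245 ± 6.7 and 1165 for Oasl2 and 9296 ± 495 and 14283 for Ifitm3. Over the whole list the median difference was 0.23 in untreated cells and -0.02 with KLA, while over all genes it was -0.01 in each. Oas3 differed by 0.27 and lost its call without the siGABP KLA array, the siCtrl KLA array, the siGABP untreated array, the siCtrl untreated array, the siMLL KLA array, siMLL untreated replicate 1, siMLL untreated replicate 2 or siMLL untreated replicate 3 (highest adjusted p = 0.247).

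Antigen presentation held calls in both MHC classes. In class I, 4 of 19 genes were called, all higher (21.1%, against 11.3% of all genes called and 5.81% higher). Besides H2-Q8 they were H2-Q6 (0.45), H2-T22 (0.54) and Tapbp, the tapasin that loads peptides, at 666 and 1703 with siGABP, 425 ± 57.5 and 986 with siMLL, against 494 and 1001 with siCtrl (log2 0.62 ± 0.12 SE, adjusted p = 0.00984). A second H2-T22 probe differed by 0.20 untreated and -0.57 with KLA, and with the mean of its probes H2-T22 was not called. In class II and costimulation 3 of 14 were higher and 1 lower (28.6% called). The class II chain gene H2-Ab1 (575 and 644 with siGABP, 469.9 ± 20.6 and 519.9 with siMLL, against 432 and 512 with siCtrl, log2 0.40 ± 0.08 SE, adjusted p = 0.00838), the invariant chain gene Cd74 (0.35) and the loading factor gene H2-DMa (0.34) were higher, and the protease gene Ctss (-0.50) was lower. Among nucleic acid sensors 1 of 12 was called (8.33%), the endosomal TLR chaperone gene Unc93b1, at 819 and 1045 with siGABP, 580.2 ± 67.3 and 600.2 with siMLL, against 608 and 654 with siCtrl (log2 0.58 ± 0.11 SE, adjusted p = 0.0092). Apart from H2-Q8, these calls were lost without at least 1 array among siGABP KLA, siCtrl KLA, siGABP untreated, siCtrl untreated, siMLL KLA, siMLL untreated replicate 1 and siMLL untreated replicate 3 (highest adjusted p for each gene 0.0614 to 0.473).

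Of 15 scavenger and efferocytosis receptor genes 4 were called lower and 0 higher (median -0.17). This was 26.7% called, against 11.3% of all genes called and 5.47% lower. Gas6, which bridges dying cells to phagocyte receptors, read 501 and 346 with siGABP, against 759 and 493 with siCtrl, and the siMLL arrays read 720.0 ± 18 and 489, near siCtrl (log2 -0.60 ± 0.07 SE, adjusted p = 0.000892). The integrin gene Itgb5 differed by -0.55, the lysosomal receptor gene Scarb2 by -0.36 and the fatty acid receptor gene Cd36 by -0.67. The Cd36 difference was -0.25 untreated and -1.10 with KLA. Among liver X receptor and PPAR targets, Apoe, which carries cholesterol out of macrophages, read 6669 and 4727 with siGABP, 8414 ± 639 and 6069 with siMLL, against 10402 and 8050.5 with siCtrl (log2 -0.71 ± 0.09 SE, adjusted p = 0.000892). Lipa, the lysosomal cholesteryl ester hydrolase, read 8918 and 4901 with siGABP, 8254 ± 264 and 4468 with siMLL, against 7208 and 2668 with siCtrl (log2 0.60 ± 0.12 SE, adjusted p = 0.0126), and Scd2, a fatty acid desaturase, differed by 0.52 ± 0.12 SE. With Smpdl3a (0.39) and Pltp (-0.42), this list had 3 called higher and 3 lower of 20 (30% called). Apart from Gas6 and Apoe, these calls were lost without at least 1 array among siGABP KLA, siCtrl KLA, siGABP untreated and siCtrl untreated (highest adjusted p for each gene 0.105 to 0.316).

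Lysosomal hydrolases and proton pump subunits were called on both sides, 7 higher and 5 lower of 37 (32.4% called, against 11.3% of all genes). Asah1, the acid ceramidase, read 8701 and 6128 with siGABP, 8305 ± 615 and 6559 with siMLL, against 5832 and 3553 with siCtrl (log2 0.69 ± 0.10 SE, adjusted p = 0.00267) and Gusb, the lysosomal glucuronidase, read 3910.4 and 2579 with siGABP, 3348 ± 299 and 2107 with siMLL, against 2964 and 1524 with siCtrl (log2 0.59 ± 0.11 SE, adjusted p = 0.00652). Glb1, the lysosomal galactosidase, read 2698 and 1926 with siGABP, 3401 ± 37 and 2596 with siMLL, against 3619 and 2686 with siCtrl (log2 -0.46 ± 0.07 SE, adjusted p = 0.00301). In the glycolysis and hypoxia list 5 of 19 were higher and 1 lower (31.6% called). Gapdh, often used as a reference gene, was higher than with siCtrl, at 12889 and 11098 with siGABP, 12747 ± 876 and 9839 with siMLL, against 9796 and 7362 with siCtrl (log2 0.50 ± 0.09 SE, adjusted p = 0.00506), and Pfkfb3, an activator of glycolysis, was higher by 0.52. The glucose transporter gene Slc2a1 was lower, at 1117 and 1037 with siGABP, 1434 ± 52.6 and 1509 with siMLL, against 1465 and 1464 with siCtrl (log2 -0.46 ± 0.08 SE, adjusted p = 0.00482). Of 23 genes of the unfolded protein and stress responses 3 were lower (13% called). They were Asns, which makes asparagine (-0.58), the stress factor gene Ddit3 (-0.43) and the stress kinase gene Eif2ak3 (-0.29). The calls of Gusb, Gapdh, Slc2a1, Asns, Ddit3 and Eif2ak3 were lost without at least 1 array among siGABP KLA, siCtrl KLA, siGABP untreated, siCtrl untreated, siMLL untreated replicate 1 and siMLL untreated replicate 3 (highest adjusted p for each gene 0.0729 to 0.27).

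In the matrix protease list 3 of 17 genes were higher and 1 lower (Mmp13), 23.5% called, against 11.3% of all genes. Serpinb2, an inhibitor of plasminogen activators, read 487 and 2418 with siGABP, 439.7 ± 46.8 and 2056 with siMLL, against 327 and 1510.2 with siCtrl (log2 0.66 ± 0.10 SE, adjusted p = 0.00238), with Timp2 (0.47) and Mmp8 (0.32) also higher. Among antioxidant genes Srxn1 was higher (0.31) and Selenop, Gsta3 (-0.33) and Txnrd1 (-0.59) were lower, of 20 (20% called). In sterol synthesis 2 of 20 were lower (10% called), the cholesterol transfer gene Stard4 (-0.30) and the synthase gene Hmgcs1 (-0.37). The sterol list as a whole had a median of 0.09, with 12 genes above 0 and 8 below. Sqle (0.24) and Dhcr7 (0.35) of this list were not called. The H3K4 methyltransferase list had Ncoa6 higher (0.41) and Ash2l lower (-0.36) of 13 (15.4% called), and alternative activation had Stat6 higher (0.33) and Chil3 lower (-0.45) of 12 (16.7% called). Of 33 proteasome genes Psmb3 was higher (0.28) and Psmd11 (-0.37) and Psmc2 (-0.35) lower, and of 11 heat shock genes Hspa4 was lower (-0.46), which was 9.09% called in each of these lists. Except for Mmp13, Selenop and Serpinb2, these calls were lost without at least 1 array among siGABP KLA, siCtrl KLA, siGABP untreated, siCtrl untreated, siMLL KLA, siMLL untreated replicate 1 and siMLL untreated replicate 3 (highest adjusted p for each gene 0.105 to 0.433).

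Markers of other peritoneal cells were called in part. Of 8 measured neutrophil markers (25% called, against 11.3% of all genes) Lcn2 (316 and 509.5 with siGABP, 237 ± 14.7 and 412 with siMLL, against 185 and 317 with siCtrl, log2 0.82 ± 0.09 SE, adjusted p = 0.000409) and Mmp8 (0.32) were higher. The 8 summed to 2438 and 2925 with siGABP, 2439 to 2751 over the siMLL arrays, and 2232 and 2650 with siCtrl. Mpo, Elane, Camp and Ngp, which define neutrophil granules, lay below the filter. Of 11 mesothelial and fibroblast markers (27.3% called) Upk3b (-0.48), Wt1 (-0.42) and Pdgfrb (-0.29) were lower. These 11 summed to 6643 and 6538 with siGABP, 6071 to 6435 over the siMLL arrays, and 7437 and 6012 with siCtrl. The single measured B cell marker, Cd22, was higher (0.34), while Cd79a and Cd79b lay below the filter, and of 6 dendritic cell markers Irf8 was lower (-0.42). The dendritic cell markers summed to 3096 and 6454 with siGABP, 2957 to 7666 over the siMLL arrays, and 3289 and 10242 with siCtrl. No marker of lymphocytes other than B cells (4 measured) or of mast cells and other granulocytes (4 measured) was called. The calls of Mmp8, Wt1, Pdgfrb, Cd22 and Irf8 were lost without at least 1 array among siGABP KLA, siCtrl KLA, siGABP untreated, siCtrl untreated, siMLL KLA, siMLL untreated replicate 1 and siMLL untreated replicate 3 (highest adjusted p for each gene 0.0539 to 0.395). The part of these cells in the differences above was not tested.

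Standard TLR4 targets did not pass the test. Tnf, the early cytokine, read 217 and 18598 with siGABP, 189 ± 6.26 and 15032 with siMLL, against 162 and 17232 with siCtrl (log2 0.31 ± 0.11 SE, adjusted p = 0.0908). Il6 read 132 and 2152 with siGABP, 124 ± 3.93 and 2579 with siMLL, against 131 and 2512 with siCtrl (log2 -0.10 ± 0.10 SE, adjusted p = 0.531) and Il1b read 119 and 5758 with siGABP, 119.6 ± 7.23 and 5744 with siMLL, against 121 and 5304 with siCtrl (log2 0.05 ± 0.09 SE, adjusted p = 0.787). The Tnf difference was 0.51 untreated and 0.11 with KLA, and that of Il6 was 0.02 and -0.23. The 95% intervals, not adjusted for the number of genes, were 0.07 to 0.55 for Tnf, -0.32 to 0.11 for Il6 and -0.15 to 0.24 for Il1b. The chemokine genes Cxcl2 (0.50) and Cxcl10 (-0.33), the nitric oxide synthase gene Nos2 (-0.14), the prostaglandin synthase gene Ptgs2 (-0.15) and the exonuclease gene Isg20 (-0.03) were not called either. Of 29 genes of the NF-κB system none was called, against 11.3% of all genes. Their median was 0.02 in untreated and -0.22 in KLA-treated cells, while over all genes it was -0.01 in each.

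Upstream of these targets, 2 of 19 TLR4 pathway genes were called, both lower, against 11.3% of all genes called and 5.47% lower. The adaptor gene Myd88 read 434 and 1233 with siGABP, 451 ± 33.9 and 1478 with siMLL, against 543 and 1853 with siCtrl (log2 -0.47 ± 0.10 SE, adjusted p = 0.0107) and the transcription factor gene Irf3 read 1696 and 1449 with siGABP, 1896 ± 50.9 and 1422 with siMLL, against 2251 and 1704 with siCtrl (log2 -0.33 ± 0.08 SE, adjusted p = 0.0236).  Among cytokines and chemokines 2 of 29 were higher (Il1a and Ccl6) and 2 lower (Pf4 and Csf1), 13.8% called. Csf1, the growth factor of macrophages, read 276 and 697 with siGABP, 302 ± 16.2 and 892 with siMLL, against 321 and 1066 with siCtrl (log2 -0.44 ± 0.10 SE, adjusted p = 0.0165). The calls of Myd88, Irf3 and Csf1 were lost without at least 1 array among siGABP KLA, siCtrl KLA, siGABP untreated and siCtrl untreated (highest adjusted p for each gene 0.141 to 0.209).

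The study's own lists hold genes it chose for their response to KLA in macrophages, so a direction with KLA in them is not independent evidence. The immediate/early list had 3 of 97 called higher and 6 lower, and its late list 15 of 85 higher and 0 lower. The late list shares Lcn2, Irf7, Oasl2, Ifitm3 and Oas3 with the groups above. Ass1, which makes argininosuccinate for arginine synthesis, read 503 and 1041 with siGABP, 478 ± 28 and 917 with siMLL, against 334 and 702 with siCtrl (log2 0.62 ± 0.08 SE, adjusted p = 0.00148). Over the 85 genes the median was 0.12 in untreated cells and 0.00 with KLA. Thus 17.6% of the late list and 9.28% of the immediate/early list were called, against 11.3% of all genes.

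Whether the siGABP difference depended on KLA was tested as a difference of differences, with a residual spread from the siMLL untreated triplicate alone. A single gene was called (0.0114% of genes). Of the 8793 genes, 747 had an unadjusted p under 0.05, a cut that genes with no effect also pass at times. The called gene was Slc2a6, which encodes a glucose transporter family member induced by TLR4 signals (-2.02 ± 0.15 SE, adjusted p = 0.0112). It read 1844 and 11228 with siGABP, against 541 and 12732 with siCtrl. The siMLL untreated arrays read 1699, 1570.0 and 1679.5 and the siMLL KLA array 13100.0, so the siCtrl untreated array was the low one. With a background offset of 16 in place of 50, the Slc2a6 value was not called (adjusted p = 0.0874). Against siMLL, siGABP differed in Slc2a6 by -0.12 ± 0.30 SE, adjusted p = 0.86 over both states.

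Among genes called for the siGABP effect, none passed for dependence on KLA. Those with the smallest p for a larger difference with KLA included Igsf8, a tetraspanin partner, at 194 and 479 with siGABP, 171 ± 3.86 and 273 with siMLL, against 175 and 259 with siCtrl (0.80 ± 0.14 SE, adjusted p = 0.259 for the difference of differences). Fermt3, an integrin activator of blood cells, read 633 and 449.8 with siGABP, 516 ± 13.6 and 310.1 with siMLL, against 476 and 217 with siCtrl (0.75 ± 0.14 SE, adjusted p = 0.276). Themis2, a signalling adaptor of macrophages and B cells, read 309 and 1060.3 with siGABP, 275 ± 16.6 and 662 with siMLL, against 284 and 548 with siCtrl (0.86 ± 0.17 SE, adjusted p = 0.304). For a difference that shrank or turned more negative with KLA they included Clec4e (-0.92 ± 0.14 SE, adjusted p = 0.204), Pvr, a ligand of lymphocyte receptors (-0.90 ± 0.16 SE, adjusted p = 0.259), and Gas7 (-0.89 ± 0.16 SE, adjusted p = 0.259). The calls of Igsf8, Fermt3, Themis2, Pvr and Gas7 for the mean difference were lost without at least 1 array among siGABP KLA, siCtrl KLA, siGABP untreated, siCtrl untreated, siMLL KLA, siMLL untreated replicate 1 and siMLL untreated replicate 3 (highest adjusted p for each gene 0.0636 to 0.406). With KLA, Pvr read 221 in siGABP cells, 395 in siMLL cells and 460.1 in siCtrl cells. Cxcl2 read 280.4 untreated with siGABP, against 154 with siCtrl, and with KLA it read 11834 with siGABP, against 12155 with siCtrl. Its difference of differences did not pass (-1.07 ± 0.14 SE, adjusted p = 0.167).

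**Figure D5:**
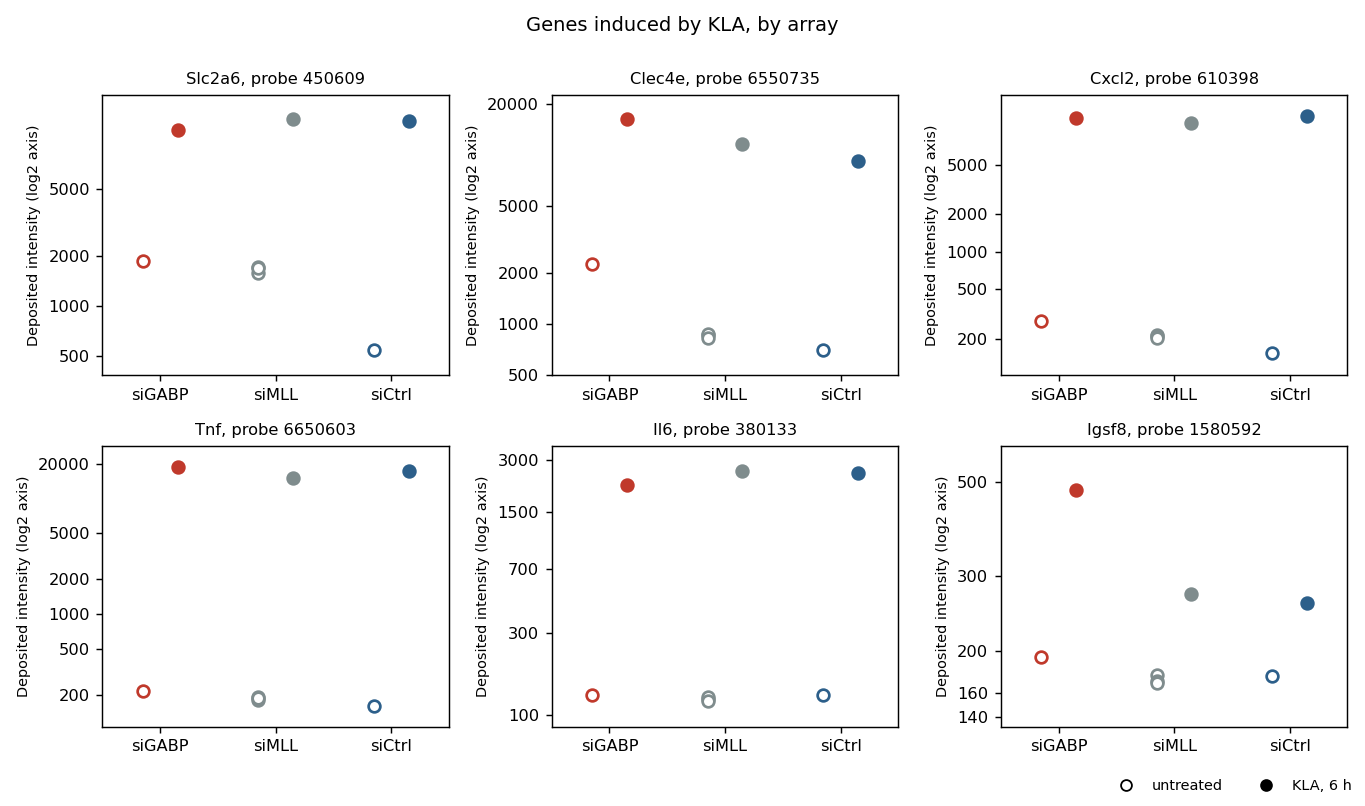
Deposited intensity (log2 axis) of 6 genes that were brighter with KLA in each array, by siRNA, with open points for untreated and filled points for KLA-treated cells. Each point is 1 array. For Slc2a6 the siCtrl untreated array lies below the other untreated arrays, for Clec4e the siGABP untreated array lies above them, and for Igsf8 the siGABP KLA array lies above the other KLA arrays.

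Matches to CCGGAAG were looked for in the same window of all genes. Of 7211 tested genes with a RefSeq promoter entry, 19.8% had a match on either strand of a window. Of all 32851 windows of the table, 8.86% had a match. The 19.8% counts genes, which can have several windows, and the 8.86% counts windows, so these values are not directly comparable. Among called genes the share was 21.4% for those higher (91 of 425) and 23.5% for those lower (93 of 395). The shorter CGGAA, which CCGGAAG contains, gave 52.7% and 55.4%, against 52.6% of tested genes, and the longer ACCGGAAGT gave 2.59% and 2.28%, against 2.27%. Genes with 2 or more matches to CCGGAAG were called higher in 6.02% and lower in 6.02% of 266 cases, and 5782 genes without a match in 5.78% and 5.22%. Among the lists, the share was 40.4% of 57 cytosolic and 37.7% of 61 mitochondrial ribosomal protein genes with a window. It was 45% of 20 genes of mitochondrial DNA maintenance and translation and 23.1% of the textbook GABP targets. For the respiratory chain it was 11.5% of 26 complex I genes and 43.8% of 16 genes of complexes II to IV and cytochrome c. For the ATP synthase it was 30.8% of 13 genes. These matches describe letters in a window, not bound sites.

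The promoter windows of 4 called genes with a CCGGAAG match near the start are shown, since these genes moved in opposite directions. Heatr1 fell (chr13:12395125-12395424, plus strand, match 16 bases before the start), while Bcl2l1 (chr2:152831679-152831978, minus strand, match beginning 35 bases into the transcript), Spg21 (chr9:65460687-65460986, plus strand, match across the start) and Timm8b (chr9:50603651-50603950, plus strand, match 12 bases before the start) were higher. They are printed 5′ to 3′ on the strand of the gene from RefSeq (GRCm38.p6), with the match in capitals. The Heatr1, Spg21 and Timm8b matches lie within 20 bases of the start.

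Heatr1: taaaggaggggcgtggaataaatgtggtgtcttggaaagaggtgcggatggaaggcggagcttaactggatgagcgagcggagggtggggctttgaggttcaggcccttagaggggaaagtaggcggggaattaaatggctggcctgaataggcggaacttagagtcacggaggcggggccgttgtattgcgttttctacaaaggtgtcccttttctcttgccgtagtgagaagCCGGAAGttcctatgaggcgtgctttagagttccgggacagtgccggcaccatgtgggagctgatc

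Bcl2l1: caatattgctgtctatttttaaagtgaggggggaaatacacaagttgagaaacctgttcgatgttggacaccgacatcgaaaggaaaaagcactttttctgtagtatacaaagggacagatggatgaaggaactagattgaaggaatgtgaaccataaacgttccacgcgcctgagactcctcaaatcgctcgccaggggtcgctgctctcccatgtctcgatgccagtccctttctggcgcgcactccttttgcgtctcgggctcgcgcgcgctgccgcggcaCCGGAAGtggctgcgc

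Spg21: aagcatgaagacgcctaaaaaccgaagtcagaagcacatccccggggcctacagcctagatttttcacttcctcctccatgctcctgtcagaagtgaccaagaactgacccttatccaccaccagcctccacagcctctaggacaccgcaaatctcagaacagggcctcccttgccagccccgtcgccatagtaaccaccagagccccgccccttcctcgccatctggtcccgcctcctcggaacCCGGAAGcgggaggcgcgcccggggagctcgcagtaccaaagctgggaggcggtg

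Timm8b: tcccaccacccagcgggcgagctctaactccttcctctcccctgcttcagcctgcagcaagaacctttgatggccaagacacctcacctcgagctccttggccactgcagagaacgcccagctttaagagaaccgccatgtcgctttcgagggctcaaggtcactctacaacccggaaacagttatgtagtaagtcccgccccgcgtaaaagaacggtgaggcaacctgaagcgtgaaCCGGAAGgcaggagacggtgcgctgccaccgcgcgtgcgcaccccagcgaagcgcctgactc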

How the data were processed

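RNA of 8 Illumina mouse arrays was analysed from the intensity table that the authors deposited, which holds linear intensity values and, per the submitters' processing notes, came from BeadStudio 1.5.1.3. The sorted intensities were identical on all arrays (largest difference 0), as after quantile normalization, and ranged from 68.5 to 62999. A second table holds 16 columns whose names match no sample and was not used. Values were corrected with normexp (offset 50), quantile normalized and log2 transformed. Probes with a mean above the median of all probes (log2 6.73) were kept, and 10763 named probes gave 8793 genes (20903 of 20917 probes with 1 gene matched by Entrez identifier). The probe with the highest mean stood for a gene.

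limma 3.58.1 (R 4.3.3) fitted siRNA and KLA as additive terms over all 8 arrays (4 residual degrees of freedom). A model with a mean per group tested dependence on KLA (2 residual degrees of freedom, with single arrays assumed to vary like the siMLL triplicate). Tests were two-sided, with Benjamini-Hochberg adjustment over all genes. Nothing says that replicates came from separate cultures or mice, so p-values measure only the spread between these arrays. Alternatives changed the background correction, offset, filter, choice of probe, prior variance, arrays used and model, 1 at a time. The fits were tested on simulated data. The number of arrays limits the precision.

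Genes named were the 15 largest called changes each way, the members of each list with the smallest p (at most 4), the GABP subunits, 8 standard TLR4 targets, and the 5 smallest p each way for dependence on KLA. Slc2a6 and further members named beside a count were chosen after their values were seen. The comparison, lists and tests were chosen with earlier results of these data known.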

Additional observations from a re-analysis of the deposited data

Results flagged for a closer look

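The siGABP difference in Slc2a6 differed between KLA states by -2.02 on the log2 scale in the test of the difference itself (adjusted p = 0.0112), at 1.83 in untreated and -0.18 in KLA-treated cells. Single arrays set each value. The siGABP untreated array read 1844 and the siMLL untreated arrays 1570.0 to 1699, while the siCtrl untreated array lay apart at 541.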

How the results depend on the processing

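The count of genes called for siGABP against siCtrl (992) was 542 of 15946 genes with no intensity filter (288 higher and 254 lower) and 465 with the siMLL arrays in place of siCtrl. With single arrays left out it lay between 212 (without the siGABP KLA array) and 1092 (without siMLL untreated replicate 2). It was 674 with the siGABP and siCtrl arrays alone and 726 with an offset of 16, and between 866 and 1096 with no background correction, the stricter filter, the mean of a gene's probes, a trend in the prior variance, averaged siMLL untreated arrays, a mean per group or the filter on the 4 arrays. For dependence on KLA, 0 genes were called with an offset of 16. Gabpa differed by -0.045 on probe 4780301 alone. With single arrays left out, 4 genes that were not called changed sign. Il6 lay between -0.27 and 0.058, Il1b between -0.025 and 0.12, Ptgs2 between -0.37 and 0.073, and Isg20 between -0.14 and 0.077. Of 122 called genes followed by name, 47 kept the call under every alternative that kept siCtrl as the reference, and all 122 kept their direction in each of these where they were tested. With siMLL in place of siCtrl, Il1a, Pmp22, Dio2, Lsp1 and Spg21 were among the genes not called, and Slc46a3 (-0.35) and Ccl6 (-0.46) had the opposite sign. With the mean of a gene's probes, H2-T22, Ndufa5, Irf3, Ncoa6, Pltp and Mrpl48 were not called. Without the filter, the calls among cytosolic ribosomal proteins fell to 1, among cell cycle genes to 3, among mitochondrial ribosomal proteins to 2 and among proteasome, sterol synthesis and heat shock genes to 0. With no background correction, complex I had 6 and the NF-κB list 1. The causes were not tested. No paired analysis was possible because only the siMLL untreated arrays carry replicate numbers. Single arrays for each siRNA and KLA state, no usable detection values and dim probes near background limit these results.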
